A study of Danio rerio with 3 samples.

Results

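The 7 genes described here are the visual opsins *opn1lw1* and *opn1lw2* (red), *opn1mw1* and *opn1mw2* (green), *opn1sw1* (ultraviolet), *opn1sw2* (blue) and *rho* (rod) of the zebrafish retina. They were taken by symbol from the 27773 genes counted in each of 3 single-cell RNA libraries, and each symbol stood on 1 line of the gene list. The libraries were made from dissected retinae of 9 dpf larvae, sorted for Gfap-positive cells, 1 library per condition. All 3 transgenic lines carried the reporters her4.1:dRFP and gfap:GFP. Larvae of the Lws2-ablation library also carried lws2:nfsb-mCherry, and larvae of the library labelled Sws2-ablation carried sws2:nfsb-mCherry, in which a red or a blue opsin promoter drives nitroreductase, an enzyme that turns metronidazole into a toxic product inside the cell. Larvae of the no ablation library had no nitroreductase. Larvae of all 3 lines were kept in 10 mM metronidazole for 48 h from 6 dpf and were taken 3 days after the start of injury. The number of larvae per library is not given in the sources used here.

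A visual opsin is a membrane receptor that holds a retinal chromophore and starts phototransduction when light changes the shape of the chromophore. A photoreceptor usually uses 1 type of opsin, and that opsin sets the colours to which it responds, so opsins are the classic markers of cone types. Zebrafish have rods and red, green, blue and ultraviolet cones, and their red and green opsins lie in tandem arrays of similar copies. In the RefSeq annotation of the assembly GRCz12tu, *opn1sw2*, *opn1lw1* and *opn1lw2* are neighbours on chromosome 11, and *opn1mw1*, *opn1mw2*, *opn1mw3* and *opn1mw4* are neighbours on chromosome 6. Because the tandem copies are alike, some reads of *opn1lw1* and *opn1lw2*, or of the *opn1mw* genes, may fit more than 1 copy. How such reads entered the counts was not tested, and values of single copies are uncertain to that extent.

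With at least 200 genes detected, 10520 cells of the Lws2-ablation library, 7891 of the library labelled Sws2-ablation and 8325 of the no ablation library were kept. They held 75110026 UMIs in Lws2-ablation (median 5884 per cell), 52574675 in labelled Sws2-ablation (5030) and 43011757 without ablation (4382). Each pair of libraries shared 17 to 29 cell barcodes. The library labelled Sws2-ablation had 115 EGFP UMIs in 40 cells, against 45680 in the no ablation library, although its line is described with gfap:GFP. Kits of versions v2 and v3 were used, not assigned to libraries in the sources used here, so kit and condition cannot be told apart. With 1 library per condition no test was possible: levels are UMIs summed over cells, per 1000000 UMIs of those cells (CPM), with exact 95% Poisson intervals. Shares of cells have exact 95% binomial intervals. All intervals cover counting error only. UMIs mark the 3′ ends of transcripts and were not divided by gene length.

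A cell was called cone-gated when it held UMIs of at least 3 of *gnat2*, *gngt2b*, *arr3a* and *pde6ha* and at least 10 UMIs of these together. These genes encode the cone transducin alpha and gamma subunits, a cone arrestin and the inhibitory subunit of the cone phosphodiesterase. The gate took 196 cells (1.86%, interval 1.61 to 2.14%) of the Lws2-ablation library, 77 cells (0.976%, 0.771 to 1.22%) of the library labelled Sws2-ablation and 104 cells (1.25%, 1.02 to 1.51%) of the no ablation library. Because cells were sorted for Gfap reporter, these shares are not shares of the retina. Another 22 cells in Lws2-ablation, 9 cells in labelled Sws2-ablation and 32 cells without ablation passed both this gate and that for glia and were kept apart. Below, cells named as outside the cone gate include these. Of the cells passing this gate, 40 in Lws2-ablation, 13 in labelled Sws2-ablation and 21 without ablation were near its limit, with 10 to 19 UMIs. Cells with 3 of the genes that failed at 5 to 9 UMIs numbered 48 in Lws2-ablation, 12 in labelled Sws2-ablation and 11 without ablation. The cone-gated cells made up a small share of each library but held 76.9% of the 43952 UMIs of the 7 opsins in the Lws2-ablation library. They held 64.9% of 6573 in the library labelled Sws2-ablation and 57.7% of 7335 in the no ablation library. Of all UMIs in these cells, opsins were 3.38% in Lws2-ablation, 1.02% in labelled Sws2-ablation and 1.27% without ablation.

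The red opsin *opn1lw2* was the most counted opsin in the cone-gated cells of every library, also in the library whose *lws2* promoter drives nitroreductase. It reached 32241 CPM (31890 to 32595) in the Lws2-ablation library, 7308 CPM (7051 to 7572) in the library labelled Sws2-ablation and 8883 CPM (8565 to 9208) in the no ablation library. The level in the Lws2-ablation library was 3.63 times that without ablation (3.50 to 3.77), and the 3 intervals did not overlap. The level in the library labelled Sws2-ablation was 0.823 times that without ablation (0.782 to 0.866). In that comparison genes with at least 20 UMIs in both libraries had a median log2 ratio of -0.24. The log2 ratio of *opn1lw2* was -0.28, -0.045 when scaled to that median, and 0.045 with *arr3a* left out of the gate, so its direction was not fixed. A few cells carried much of this signal: 24 cells in Lws2-ablation, 5 cells in labelled Sws2-ablation and 8 cells without ablation held 50% of the *opn1lw2* UMIs of the cone-gated cells. Without the 5 cells richest in *opn1lw2* in each library, the log2 ratio of Lws2-ablation to no ablation was 2.28, against 1.86 with all cells.

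**Figure D1:**
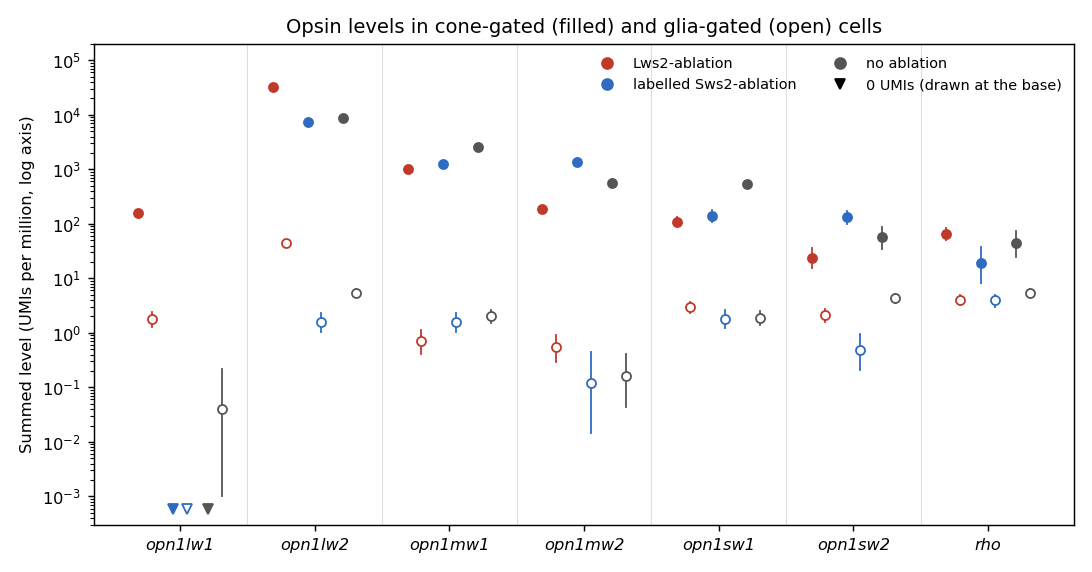
Summed level of each opsin, in CPM on a log axis, in cone-gated cells (filled) and glia-gated cells (open) of the 3 libraries, with exact 95% Poisson intervals; triangles at the base mark 0 UMIs. The cone-gated value of *opn1lw2* in the Lws2-ablation library, 32241, stands highest, and *opn1lw1* has a filled point, 157, in that library alone.

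Of the 7 opsins, 2 were at least 2-fold higher (*opn1lw1*, *opn1lw2*) and 4 at least 2-fold lower (*opn1mw1*, *opn1mw2*, *opn1sw1*, *opn1sw2*) in cone-gated cells of the Lws2-ablation library than of the no ablation library. The 2-fold limit was applied with 1 CPM added to genes with at least 20 UMIs in the 2 libraries together. Of the 4737 genes that reached this count, 14.1% were 2-fold higher and 13.9% 2-fold lower. The median log2 ratio was -1.21 over the 7 opsins and 0.07 over all these genes. *opn1mw2* and *opn1sw2* of the library labelled Sws2-ablation were at least 2-fold higher and *opn1mw1*, *opn1sw1* and *rho* at least 2-fold lower, of 6 opsins that could be compared. The call of *opn1mw1* (log2 ratio -1.08) was close to the limit. Under other settings its log2 ratio ran from -1.28 to -0.73, that of *opn1sw2* from 0.73 to 3.71 and that of *opn1sw1* from -2.44 to 0.31. These calls were thus not kept under all settings. Counting cells that also passed the glia gate turned *rho* there from a log2 ratio of -1.23 to 0.68. There 5.94% of 3129 genes were 2-fold higher and 18% were 2-fold lower, and the medians were -0.68 for the opsins and -0.24 for all genes.

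Other genes of cone phototransduction were described as a list. Of its 26 genes, 22 could be compared between Lws2-ablation and no ablation in cone-gated cells. The cone transducin gamma gene *gngt2b* (log2 ratio 1.55) and the recoverin gene *rcvrna* (1.97) were at least 2-fold higher. At least 2-fold lower were 4 genes, the cone arrestin *arr3b* (-2.11), the cyclic nucleotide-gated channel subunits *cnga3b* (-1.23) and *cngb3.1* (-1.51), and the guanylate cyclase activator *guca1c* (-2.18). The list had a median log2 ratio of -0.31. In the library labelled Sws2-ablation 21 could be compared: *rcvrna* (1.27) was higher, *arr3b* (-1.53), the opsin kinase *grk7a* (-1.42), *cnga3b* (-1.78), *cngb3.1* (-1.76) and *guca1c* (-1.95) were lower, and the median was -0.43. Both comparisons use the same no ablation cells. The cone-gated cells also differed in RNA of other cell types. The 4 glial gate genes (*glula*, *rlbp1a*, *gfap*, *aqp1a.1*), all counted in each library, summed to 533 CPM in the Lws2-ablation library, 1011 CPM in the library labelled Sws2-ablation and 5157 CPM in the no ablation library. The 4 rod gate genes summed to 96.0 CPM in Lws2-ablation, 55.1 CPM in labelled Sws2-ablation and 66.0 CPM without ablation, and all 4 microglial genes were at 0. The part of this in the opsin values was not tested.

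Each cell was then assigned a main opsin, the 1 with over 50% of at least 5 opsin UMIs. In the Lws2-ablation library 153 of 196 cone-gated cells had *opn1lw2* as main opsin, 16 *opn1mw1*, 5 *opn1mw2* and 2 *rho*, and 20 had fewer than 5 opsin UMIs. In the library labelled Sws2-ablation, of 77 cells, 36 had *opn1lw2*, 12 *opn1mw1*, 9 *opn1mw2*, 3 *opn1sw1* and 1 *opn1sw2*, 2 were mixed and 14 had too few UMIs. In the no ablation library, of 104 cells, 46 had *opn1lw2*, 18 *opn1mw1*, 4 *opn1mw2*, 2 *opn1sw1* and 1 *rho*, 2 were mixed and 31 had too few UMIs. Red opsin cells were thus 86.9% (81.0 to 91.5%) of cone-gated cells with a main opsin in the Lws2-ablation library, 59.0% (45.7 to 71.5%) in the library labelled Sws2-ablation and 64.8% (52.5 to 75.8%) in the no ablation library. The interval of the Lws2-ablation library lay above the others, which overlapped. The gate uses *arr3a* and not *arr3b*, so these are shares of the cells it took and not of all cones. Green opsin cells with *opn1mw1* were 9.09% (5.29 to 14.3%) in Lws2-ablation, 19.7% (10.6 to 31.8%) in labelled Sws2-ablation and 25.4% (15.8 to 37.1%) without ablation.

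**Figure D2:**
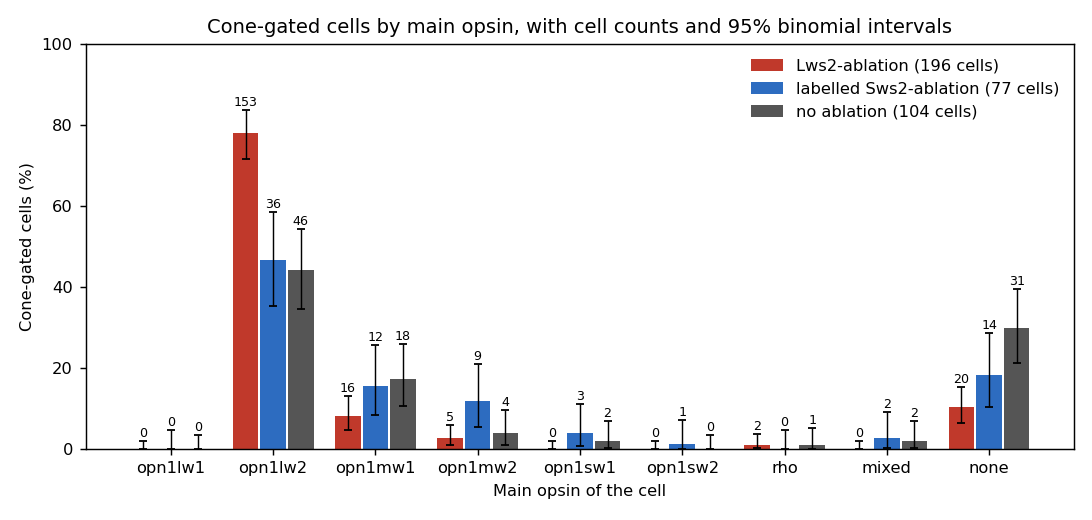
Share of cone-gated cells by main opsin in the 3 libraries; bars show percent of all cone-gated cells, whiskers exact 95% binomial intervals and numbers the cells. The bar of *opn1lw2* in the Lws2-ablation library (153 of 196 cells) stands above those of the other libraries (36 of 77 and 46 of 104), and no cone-gated cell had *opn1lw1* as main opsin.

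The red opsin level also differed from cell to cell. Among cone-gated cells with *opn1lw2* as main opsin, the Lws2-ablation library had 6 to 1523 *opn1lw2* UMIs per cell, with a median of 124. The library labelled Sws2-ablation had 3 to 463, with a median of 47, and the no ablation library 5 to 422, with a median of 38.5. As a share of the UMIs of a cell the medians were 3.81% in Lws2-ablation, 0.864% in labelled Sws2-ablation and 1.36% without ablation, and the ranges of the 3 libraries overlapped. These cells had 511 to 17983 UMIs in Lws2-ablation (median 2910, mean 4862), 525 to 10517 in labelled Sws2-ablation (median 5839, mean 5525) and 801 to 7864 without ablation (median 2913, mean 3453). The depth of the Lws2-ablation cells thus spread more widely than that of the no ablation cells, at almost the same median. The highest *opn1lw2* share of each library lay in a cell shallower than its median. It was 36.1% at 1116 UMIs in Lws2-ablation, 11.2% at 2466 in labelled Sws2-ablation and 24.9% at 1697 without ablation. The deepest Lws2-ablation cell was at 0.256%. The part of depth in the shares was not tested. Summed over these cells *opn1lw2* was at 43290 CPM in Lws2-ablation, 15153 CPM in labelled Sws2-ablation and 18452 CPM without ablation. Thinning all cells to 1000 UMIs gave a log2 ratio of Lws2-ablation to no ablation in cone-gated cells of 2.11.

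The reference of the counts held an RFP sequence, and the summed RFP level of the Lws2-ablation library was higher in its red opsin cells than in its green opsin cells, while single cells overlapped. RFP was at 9174 CPM (8958 to 9395) in the 153 red opsin cells of that library and at 711 CPM (552 to 902) in its 21 cone-gated cells with *opn1mw1* or *opn1mw2*. The values were 990 CPM (857 to 1139) in 36 red opsin cells and 935 CPM (780 to 1112) in 21 green opsin cells of the library labelled Sws2-ablation. In the no ablation library they were 787 CPM (655 to 938) in 46 red opsin cells and 420 CPM (287 to 593) in 22 green opsin cells. The medians over single red opsin cells were 2278 CPM in Lws2-ablation, 863 CPM in labelled Sws2-ablation and 566 CPM without ablation. In the Lws2-ablation library single red opsin cells ran from 0 (26 of 153 cells) to 49810 CPM, and the 21 green opsin cells from 0 to 4437 CPM with a median of 365 CPM. Of the red opsin cells of that library 13 held 50% of the RFP UMIs, and without the 5 richest the summed level was 7325 CPM (7125 to 7530). All 3 lines carry her4.1:dRFP, and glia-gated cells held 4325 CPM in Lws2-ablation, 6591 CPM in labelled Sws2-ablation and 3239 CPM without ablation. Cells with *opn1sw2* as main opsin outside the cone gate held 633 CPM (565 to 707) in Lws2-ablation. They held 122 CPM (85.1 to 170) in labelled Sws2-ablation and 232 CPM (177 to 299) without ablation. Whether transcripts of nfsb-mCherry were counted as RFP was not tested.

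**Figure D3:**
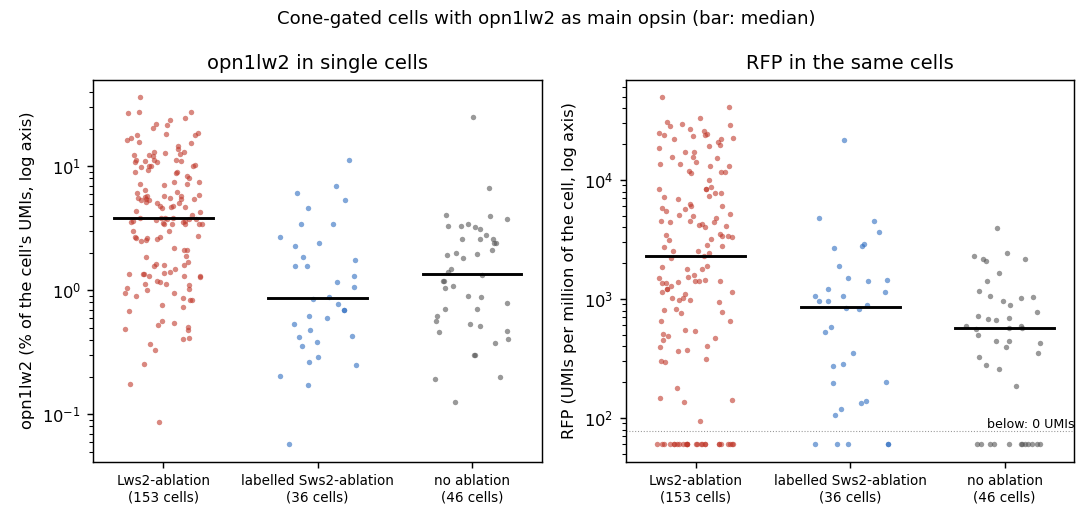
Single cone-gated cells with *opn1lw2* as main opsin; left, *opn1lw2* as percent of the UMIs of the cell, right, RFP in CPM of the cell, both on log axes, with the median as a bar and cells without RFP below the dotted line. The Lws2-ablation cells have the highest medians, 3.81% and 2278, and their points overlap with those of the other libraries.

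Red opsin cells carried *thrb*, the thyroid hormone receptor needed for red cones, and cells with another main opsin had little or none. Cone-gated cells with *opn1lw2* had 827 CPM of *thrb* in the Lws2-ablation library, against 0 UMIs in the 23 cells with another main opsin. The values were 463 against 49.2 CPM in the library labelled Sws2-ablation and 988 CPM against 0 UMIs in the no ablation library. By the lowest ratio over the 3 libraries, *thrb* led the genes with at least 20 UMIs, followed by si:dkey-72l14.3, CT573282.1, *crhbp*, which encodes a binding protein of corticotropin-releasing hormone, and *camk1gb*, a calcium-dependent kinase gene. Each of these 5 was at least 3.05-fold higher in the red opsin cells of each library, with 10 CPM added. The homeobox gene *six7*, a regulator of green cone fate in zebrafish, had no one direction. It was at 204 CPM in red opsin cells, against 444 CPM in the cells with another main opsin, in Lws2-ablation, at 327 against 259 CPM in labelled Sws2-ablation and at 579 against 541 CPM without ablation. The arrestin *arr3b* was lower in red opsin cells of all libraries, at 99.5 against 250 CPM in the cells with another main opsin in Lws2-ablation, 136 against 215 CPM in labelled Sws2-ablation and 81.8 against 834 CPM without ablation. These genes rank by the same cells that were split, so the ratios are descriptions.

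The second red opsin, *opn1lw1*, was counted almost only in the Lws2-ablation library. That library had 421 *opn1lw1* UMIs in 188 cells, against 1 UMI in the library labelled Sws2-ablation and 2 UMIs in the no ablation library. Per 1000 UMIs of *opn1lw2* these were 10.5 (9.48 to 11.5) in Lws2-ablation, 0.252 (0.00639 to 1.41) in labelled Sws2-ablation and 0.450 (0.0545 to 1.63) without ablation. The interval of the Lws2-ablation library lay above both others. In cone-gated cells *opn1lw1* was at 157 CPM (133 to 184) in the Lws2-ablation library, with 0 UMIs in the cone-gated cells of the other libraries. With 3 counts over the cone-gated cells of the other library as the floor, this is at least 17.4-fold higher than without ablation and at least 21.9-fold higher than in the library labelled Sws2-ablation. The exact interval of the ratio to no ablation, from 157 against 0 UMIs, began lower, at 14.0-fold. One cell that passed the cone and the glia gate held 111 of the 421 UMIs, and 310 remained without it. Of the 188 cells 89 held any *opn1lw2*, and 100 had more *opn1lw1* than *opn1lw2*, each of these with 1 or 2 *opn1lw1* UMIs, while 283 of the 421 UMIs lay in cells with *opn1lw2* as main opsin. Glia-gated cells of this library had 43 *opn1lw1* UMIs, or 1.80 CPM, beside 44.1 CPM of *opn1lw2*. The 3 UMIs in the other libraries lay in cells whose main opsin was *opn1sw2*, and 7 of the 36 such cells of the Lws2-ablation library held *opn1lw1* too.

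Both green opsins had lower summed levels in cone-gated cells of the Lws2-ablation library than of the no ablation library. *opn1mw1* was at 1020 CPM (959 to 1085) in the Lws2-ablation library, 1231 CPM (1127 to 1342) in the library labelled Sws2-ablation and 2612 CPM (2441 to 2791) in the no ablation library. Within the cells that had it as main opsin, it was at 13844 CPM (12989 to 14741) in 16 cells in Lws2-ablation, 3666 CPM (3265 to 4103) in 12 cells in labelled Sws2-ablation and 12778 CPM (11886 to 13719) in 18 cells without ablation. There the intervals of the Lws2-ablation and no ablation libraries overlapped, and the library labelled Sws2-ablation was lower. In that library 1 cell with 5 *opn1mw1* UMIs had 41690 of the 82654 UMIs of the 12 cells, and without it the level was 7275 CPM. The cell with the most UMIs left out likewise, the others were at 13810 CPM in Lws2-ablation and 14941 CPM without ablation. *opn1mw2* was at 188 CPM (162 to 217) in Lws2-ablation, 1382 CPM (1272 to 1500) in labelled Sws2-ablation and 573 CPM (495 to 661) without ablation, highest in the library labelled Sws2-ablation. There 2 cells held 50% of its UMIs, and 1 cell held 249 of 577. Without the cell richest in it, *opn1mw2* was at 151 CPM in Lws2-ablation, 798 CPM in labelled Sws2-ablation and 332 CPM without ablation. The log2 ratio of *opn1mw2* to no ablation was 1.27 in that library and -1.61 in the Lws2-ablation library. Their tandem neighbours were almost uncounted: *opn1mw3* had 2 UMIs in Lws2-ablation, 4 in labelled Sws2-ablation and 0 without ablation, and *opn1mw4* had 0 in each whole library.

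Counted from 5 UMIs of an opsin, most cone-gated cells held a single opsin. At least 5 UMIs of 1 or more opsins were found in 174 cone-gated cells of Lws2-ablation, 61 of labelled Sws2-ablation and 70 without ablation. At least 5 UMIs of each of 2 opsins were found in 24 of 196 cone-gated cells of the Lws2-ablation library, 16 of 77 of the library labelled Sws2-ablation and 10 of 104 of the no ablation library. Among these the pair *opn1mw1* and *opn1mw2* made up 7 in Lws2-ablation, 9 in labelled Sws2-ablation and 5 without ablation, and *opn1lw1* with *opn1lw2* made up 10 in the Lws2-ablation library. No glia-gated cell held 2 opsins at this level. However, only 17 of 3152 in Lws2-ablation, 2 of 2334 in labelled Sws2-ablation and 5 of 4519 without ablation held at least 5 UMIs of even 1 opsin. Cells passing both the cone and the glia gate had been kept apart. A count above 0 was thus unlikely from the start, and no conclusion is drawn from it. Doublets were not removed, so that pairs of unlike opsins such as *opn1lw2* and *opn1sw1* (4 cells of Lws2-ablation, 2 of labelled Sws2-ablation and 0 without ablation) may hold droplets with 2 cells, which was not tested. Of the cone-gated cells, 10.2% in Lws2-ablation, 18.2% in labelled Sws2-ablation and 29.8% without ablation had fewer than 5 opsin UMIs. These cells had 1753 CPM of *arr3a* and 176 CPM of *thrb* in Lws2-ablation (20 cells), 11620 and 436 CPM in labelled Sws2-ablation (14 cells) and 23755 and 952 CPM without ablation (31 cells).

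The short-wave opsins were counted mostly outside the cone gate. This is in part set by the gate, which uses *arr3a* and not *arr3b*. Cone-gated cells held 110 of 525 *opn1sw1* UMIs in Lws2-ablation, 59 of 238 in labelled Sws2-ablation and 177 of 377 without ablation. In cone-gated cells the blue opsin *opn1sw2* was at 24.01 CPM (15.4 to 35.7) in Lws2-ablation, 132 CPM (99.2 to 171) in labelled Sws2-ablation and 57.0 CPM (34.3 to 89.1) without ablation. These rest on 24 UMIs (2.77% of all *opn1sw2* UMIs) in Lws2-ablation, 55 (7.18%) in labelled Sws2-ablation and 19 (3.89%) without ablation. When cells that also passed the glia gate were counted as cone-gated, the log2 ratio of Lws2-ablation to no ablation, -1.25, turned to 0.12, and thinned to 1000 UMIs it was 1.27. Over whole libraries *opn1sw2* was at 11.5 CPM (10.8 to 12.3) in Lws2-ablation, 14.6 CPM (13.6 to 15.6) in labelled Sws2-ablation and 11.4 CPM (10.4 to 12.4) without ablation. Cells with *opn1sw2* as main opsin numbered 36 of 10520 in Lws2-ablation, with all 36 outside the cone gate, 20 of 7891 in labelled Sws2-ablation, with 19 outside, and 20 of 8325 without ablation, with all 20 outside. Of the 36, 1 passed both the cone and the glia gate and is counted as outside. The library labelled Sws2-ablation thus had 766 *opn1sw2* UMIs, against 489 in the no ablation library, and as many *opn1sw2* cells. In CPM over all cells this was 1.28 times the no ablation level (1.14 to 1.44).

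Most blue opsin cells passed a gate of photoreceptor precursor genes, and fewer passed a gate of cell cycle genes. The precursor gate (*crx*, *otx5*, *neurod1*, *prdm1a*) took 31 of 36 in Lws2-ablation, 18 of 20 in labelled Sws2-ablation and 17 of 20 without ablation. The cell cycle gate (*pcna*, *mki67*, *top2a*, *cdk1*) took 15 in Lws2-ablation, 5 in labelled Sws2-ablation and 5 without ablation. Classed in one of these were 29 of 36 cells in Lws2-ablation, 17 of 20 in labelled Sws2-ablation and 16 of 20 without ablation. The median depths of the blue opsin cells were 11896 UMIs in Lws2-ablation, 13612 in labelled Sws2-ablation and 12228 without ablation. All kept cells had lower medians, at 5884, 5030 and 4382 UMIs in this order. Deeper cells can pass a gate more easily. How often other cells of equal depth pass these 2 gates was not tested, so the counts do not set blue opsin cells apart from such cells. Outside the cone gate the blue opsin cells were compared by named genes: *neurod1*, a proneural factor, *insm1a*, a factor of newly made neurons, and *pcna*, a replication factor. In Lws2-ablation these were at 1194, 593 and 1244 CPM, and *pcna* was found in 27 of 36 cells. In labelled Sws2-ablation they were at 950, 580 and 1260 CPM, with *pcna* in 15 of 19 cells. Without ablation they were at 1786, 739 and 960 CPM, with *pcna* in 7 of 20 cells. *pcna* was found in the smallest share of cells without ablation. *arr3a* was at 30.3 CPM in Lws2-ablation, 3.49 CPM in labelled Sws2-ablation and 7.87 CPM without ablation. The cone gate uses *arr3a*, and these cells failed that gate, except for 1 cell of Lws2-ablation that passed it together with the glia gate. The *arr3a* level is thus in part set by the gate. *foxq2*, known in zebrafish as a factor of blue cones, was at 90.7 CPM in Lws2-ablation, 108 CPM in labelled Sws2-ablation and 51.1 CPM without ablation. *arr3b*, the arrestin of blue and ultraviolet cones, was at 84.7 CPM in Lws2-ablation, 119 CPM in labelled Sws2-ablation and 602 CPM without ablation. The rod gate genes summed to 2.02 CPM in Lws2-ablation and were at 0 in the other libraries. Those of glia summed to 914 CPM in Lws2-ablation, 311 CPM in labelled Sws2-ablation and 956 CPM without ablation. Of precursor-gated cells thinned to 1000 UMIs, 2.28% of 613 in Lws2-ablation, 2.33% of 515 in labelled Sws2-ablation and 3.85% of 286 without ablation held *opn1sw2*. Of cycling-gated cells 10 of 1104 (0.906%) in Lws2-ablation, 3 of 552 (0.543%) in labelled Sws2-ablation and 3 of 199 (1.51%) without ablation held it. In glia-gated cells 0.192% of 3130 in Lws2-ablation, 0 of 2318 in labelled Sws2-ablation and 0.178% of 4485 without ablation did, and the count of 0 of thinned cells allows a share of up to 0.129% at 3 counts (0.159% by the exact interval). Unthinned, 8 of the 2334 glia-gated cells of the library labelled Sws2-ablation held an *opn1sw2* UMI.

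The ultraviolet opsin *opn1sw1* was main opsin in 19 cells of Lws2-ablation (0 cone-gated), 13 of labelled Sws2-ablation (3 cone-gated) and 7 without ablation (2 cone-gated). In cone-gated cells it was at 110 CPM (90.4 to 133) in Lws2-ablation, 141 CPM (108 to 182) in labelled Sws2-ablation and 531 CPM (456 to 616) without ablation. There 1 cell held 55 of 110 UMIs in the Lws2-ablation library and 1 cell 81 of 177 in the no ablation library. Without the 5 cells richest in *opn1sw1* in each library the log2 ratio of the labelled Sws2-ablation to the no ablation library turned to 0.31, against -1.91 with them. Outside the gate the *opn1sw1* cells were not alike. The 19 cells of the Lws2-ablation library had 102 CPM of *arr3b*, 614 CPM of *gngt2a*, a cone transducin gamma gene, and 253 CPM of *tbx2a*. The 10 cells of the library labelled Sws2-ablation had 281, 1145 and 221 CPM of these genes, and the 5 of the no ablation library 6087, 4403 and 777 CPM. Not all genes were highest without ablation. *tbx2b* was at 68.3 CPM in Lws2-ablation, 141 CPM in labelled Sws2-ablation and 64.8 CPM without ablation, and *six7* at 61.4 CPM, 221 CPM and 0 UMIs in this order. These cells also held glial RNA: *glula* was at 3311, 904 and 3173 CPM and *rlbp1a* at 1843, 683 and 1295 CPM in this order. The gate gene *gnat2* was at 116 CPM in Lws2-ablation, 0 UMIs in labelled Sws2-ablation and 1101 CPM without ablation. The gate gene *arr3a* was at 41.0 CPM, 40.2 CPM and 0 UMIs in this order. Of the 19 cells of the Lws2-ablation library 2 passed both the cone and the glia gate, and the other cells named here failed the cone gate. Both levels are thus in part set by that gate.

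**Figure D4:**
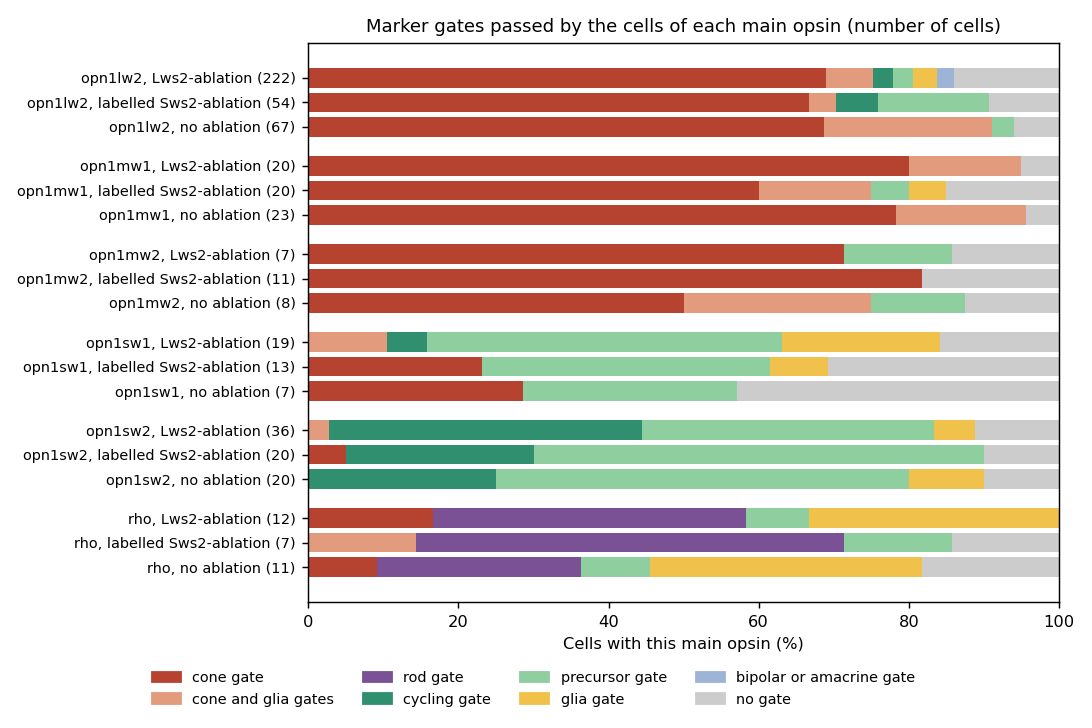
Where the cells of each main opsin lie, as percent of these cells in each library (number of cells in brackets), each cell counted once by the first gate it passed in a fixed order. The cone gate takes most of the red and green opsin cells (153 of 222 for *opn1lw2* in the Lws2-ablation library), except for *opn1mw2* without ablation (4 of 8). It takes almost none of the *opn1sw2* cells, which lie mostly in the cycling and precursor gates.

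**Figure D5:**
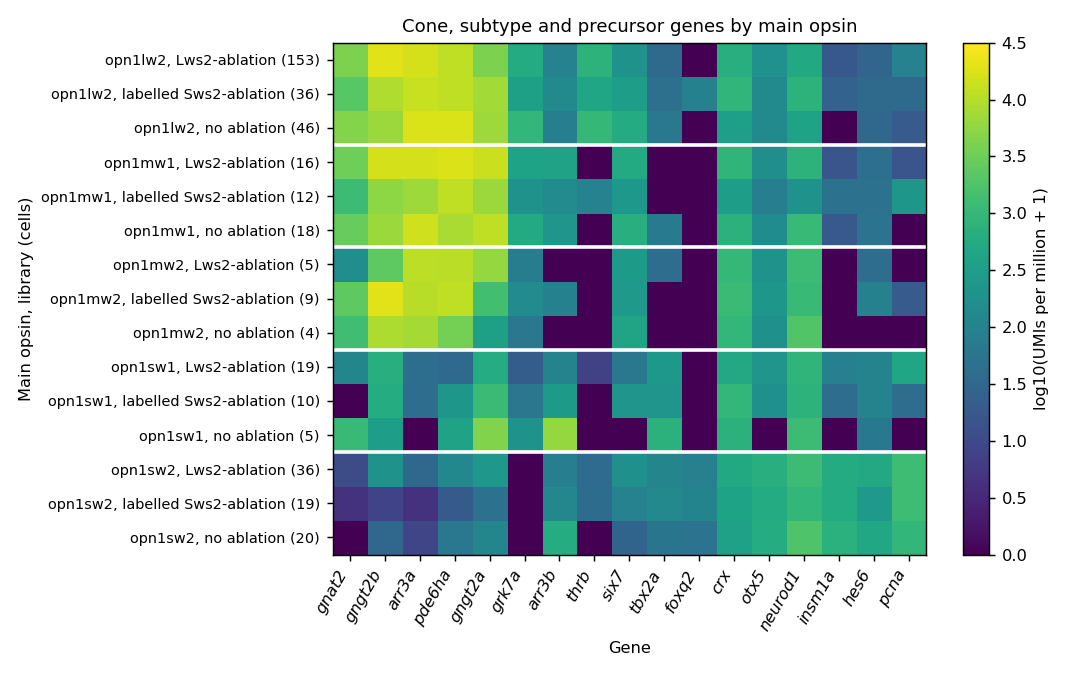
Summed level of cone, cone subtype and precursor genes, as log10 of CPM plus 1, by main opsin and library, in cone-gated cells for *opn1lw2*, *opn1mw1* and *opn1mw2* and in cells outside the cone gate for *opn1sw1* and *opn1sw2* (number of cells in brackets). *thrb* is bright in the *opn1lw2* rows, and *insm1a* and *pcna* are brightest in the *opn1sw2* rows.

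Rod opsin *rho* was scarce in all libraries. Over whole libraries it was at 3.81 CPM (3.38 to 4.28) in Lws2-ablation, 4.37 CPM (3.83 to 4.98) in labelled Sws2-ablation and 14.2 CPM (13.1 to 15.4) without ablation. In the no ablation library 1 cell held 304 of the 612 UMIs, and with the cell richest in *rho* left out the levels were 3.14 CPM in Lws2-ablation, 3.48 CPM in labelled Sws2-ablation and 7.16 CPM without ablation. Cells with UMIs of at least 3 of *gnat1*, *gngt1*, *saga* and *pde6b* and 10 of these together, the rod gate, numbered 19 in Lws2-ablation, 9 in labelled Sws2-ablation and 9 without ablation. In them *rho* was at 552 CPM (430 to 697) in Lws2-ablation, 1684 CPM (1354 to 2070) in labelled Sws2-ablation and 7178 CPM (6491 to 7918) without ablation. The same cell held 304 of the 399 *rho* UMIs of the rod-gated cells without ablation, so that value is mostly that of 1 cell. With the richest cell left out, the rod-gated levels were 416 CPM in Lws2-ablation, 1098 CPM in labelled Sws2-ablation and 1762 CPM without ablation. Of the rod-gated cells, 9 of 19 in Lws2-ablation, 5 of 9 in labelled Sws2-ablation and 5 of 9 without ablation held any *rho*. The extra-retinal and non-visual relatives ranged from 0 UMIs (*parapinopsina* in each library) upwards. *rgrb*, a retinal G protein-coupled receptor gene, had 1705 UMIs in Lws2-ablation, 1599 in labelled Sws2-ablation and 1195 without ablation. These counts are not scaled to the library totals of 75110026, 52574675 and 43011757 UMIs, so they do not rank the libraries.

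Glia-gated cells should not make opsins, and their opsin UMIs were taken as the background of each library. With antibody staining of mCherry, the paper found photoreceptor debris in most Müller glia after ablation, in larvae treated at a younger age. Without that staining it found debris in a smaller share of glia. Free RNA and RNA from engulfed photoreceptors were not told apart in the glia-gated cells. They numbered 3152 in Lws2-ablation, 2334 in labelled Sws2-ablation and 4519 without ablation, with medians of 6895 UMIs in Lws2-ablation, 6110 in labelled Sws2-ablation and 4960 without ablation. *opn1lw2* was at 44.1 CPM (41.5 to 46.8) in the Lws2-ablation library, 1.57 CPM (1.03 to 2.31) in the library labelled Sws2-ablation and 5.50 CPM (4.62 to 6.49) in the no ablation library. Cone-gated cells with an *opn1lw2* UMI were 85.7%, against 21.1% of glia-gated cells, in Lws2-ablation, 61.0% against 1.03% in labelled Sws2-ablation and 57.7% against 2.72% without ablation. The median depths of the cone-gated cells were 3498 UMIs in Lws2-ablation, 4960 in labelled Sws2-ablation and 2905 without ablation. Thinned to 1000 UMIs per cell these shares were 77.6% against 4.03% in Lws2-ablation, 55.4% against 0.173% in labelled Sws2-ablation and 47.4% against 0.736% without ablation. Other thinned classes of Lws2-ablation held *opn1lw2* in 7.92% of bipolar-gated, 6.36% of precursor-gated, 2.83% of amacrine-gated and 2.26% of cycling-gated cells. In this order the shares were 0.246% (1 of 407 cells), 1.75% (9 of 515), 0 of 49 cells and 0.543% (3 of 552) in labelled Sws2-ablation. Without ablation they were 1.97% (4 of 203), 1.40% (4 of 286), 2.41% (2 of 83) and 0.503% (1 of 199). Intervals on so few cells were wide, such as 0.293 to 8.43% for amacrine-gated cells without ablation. Thinning left out shallower cells, 35 cone-gated and 22 glia-gated in Lws2-ablation, 3 and 16 in labelled Sws2-ablation and 7 and 34 without ablation. In glia the 2-fold limit was passed upwards by *opn1lw1* and *opn1lw2* of 6 opsins in the Lws2-ablation library, where 7.04% of 14882 genes were higher. It was passed downwards by *opn1lw2* and *opn1sw2* of 5 in the library labelled Sws2-ablation, where 5.66% of 14164 genes were lower. For *opn1sw2*, 1 glia-gated cell of the no ablation library held 74 of its 108 UMIs, so this call rests largely on 1 cell. The call without that cell was not computed.

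The ratio of glial to cone-gated level differed between the opsins. In the Lws2-ablation library the glial level of *opn1lw2* was 0.137% of the cone-gated level. The cone gate genes stood higher there, at 0.182% for *gnat2*, 0.206% for *gngt2b*, 0.187% for *arr3a* and 0.233% for *pde6ha*. In the no ablation library *opn1lw2* was at 0.0619%, against 0.116 to 0.195% for the gate genes. Cells are called cone-gated by these genes, so the ratios of the gate genes are in part set by the gate. For *opn1sw2* the glial level was 8.73% of the cone-gated level in the Lws2-ablation library and 7.54% in the no ablation library, and for *rho* it was 6.19% in the Lws2-ablation library and 11.9% in the no ablation library. One cell held 50 of the 65 *rho* UMIs of the cone-gated cells of the Lws2-ablation library, and without it the share for *rho* was 26.6% there. The library labelled Sws2-ablation had 0.367% for *opn1sw2* and 20.5% for *rho*, against 0.0215% for *opn1lw2*. The cone-gated levels of *opn1sw2* and *rho* were thus nearer to their glial level than those of *opn1lw2* and the green opsins. The cone gate uses *arr3a* and not *arr3b*, and rods have a gate of their own. It leaves out most cells with *opn1sw2* or *rho* as main opsin, so this order is in part set by the gates. For *opn1sw1* the share was 2.67% in Lws2-ablation, 1.28% in labelled Sws2-ablation and 0.360% without ablation. For *opn1lw1* it was 1.15% in Lws2-ablation. A few cells passing the glia gate held many opsin UMIs, such as 1 with 138 of 1052 *opn1lw2* UMIs in the Lws2-ablation library and 1 with 74 of 108 *opn1sw2* UMIs in the no ablation library, without which the share for *opn1sw2* was 2.38% there. For *rho* in the library labelled Sws2-ablation it was 32.6% without the cone-gated cell richest in *rho*. In the Lws2-ablation library *opn1lw2* was 2.01 times *gngt2b* in cone-gated cells and 1.34 times in glia-gated cells.

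Over 20 sums of libraries and gated classes, the genes most like each opsin in log2(CPM + 1) differed between opsins. *opn1lw2* was most like *gngt2b* (Pearson's r = 0.984) and *gnb3b* (0.969), 2 transducin subunit genes, and *opn1mw1* was most like *ankrd33ab* (0.989) and *prph2b* (0.988), an outer segment disc gene. *opn1mw2* was most like si:dkey-23o4.6 (0.977), *opn1sw1* like *rp2* (0.967), and *rho* like *atp6v0a1a* (0.935). *opn1sw2* was most like *prdm1a* (0.898), a gene of the precursor gate, and had *six7* (0.882) among its first 5. *opn1lw1*, with few UMIs outside 1 library, reached 0.825 with *ponzr1*. These sums share libraries, depth and the gates that made the classes, so the correlations describe these classes only.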

How the data were processed

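Gfap-positive sorted retinal cells of 3 conditions were profiled as 10x 3′ libraries. The deposited matrices give UMI counts, not normalized, from the authors' run of Cell Ranger, whose version is 3.0.2 by the matrix headers and 2.1.1 by the submitters' processing notes. Those notes name the build GRCz11, and the gene list also holds EGFP and RFP. Cells with at least 200 genes were kept, and doublets were not removed. *pde6h* is listed as *pde6ha*. Gates, main opsins and intervals were computed with numpy 2.4.6, pandas 2.3.3 and scipy 1.17.1 under Python 3.11.15, drawn with matplotlib 3.10.9 and tested on simulated counts. Each cell was put in the first class it passed, in the order cone (apart if also glia), rod, cycling, glia, bipolar, amacrine, precursor, microglia and pigment. Genes named are the opsins, fixed lists, the 5 genes highest in red opsin cells and the 5 most like each opsin. Members, lists and gates were chosen with earlier results of these data known. Library totals of 43011757 to 75110026 UMIs set the precision.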

Additional observations from a re-analysis of the deposited data

Results flagged for a closer look

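Barcodes with fewer than 200 genes were left out of the comparisons. In the Lws2-ablation library 37 such barcodes held 19 UMIs of the 7 opsins among 21942 UMIs, or 866 CPM (521 to 1352). In the library labelled Sws2-ablation 5 barcodes held 0 among 3107, and in the no ablation library 11 barcodes held 1 among 5964, or 168 CPM (4.25 to 934). The value of the Lws2-ablation library lay above that without ablation, and the intervals overlapped.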

How the results depend on the processing

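Of 376 values recomputed under 24 settings, 131 were of the main results, and of these 98 stayed within their error and 33 moved. The only main value with a 2-fold call was the log2 ratio of *opn1lw2* of Lws2-ablation to no ablation, and it did not turn round. The ratio of labelled Sws2-ablation, below the 2-fold limit, changed sign without *arr3a*. Levels and shares cannot turn round. The log2 ratio of *opn1lw2* of Lws2-ablation to no ablation in cone-gated cells, 1.86, was 1.96 with all 4 gate genes, 2.04 with 20 UMIs, 1.32 with no UMI minimum, 2.03 without *arr3a*, 1.78 with *arr3b* added, 2.11 when thinned, 1.97 when scaled and 2.28 without 5 cells. That of the library labelled Sws2-ablation, -0.28, was -0.041 with all 4 genes, -0.45 with 2, -0.12 with no UMI minimum, 0.045 without *arr3a*, -0.18 with cells of both gates, -0.045 when scaled and -0.57 without 5 cells. Glial *opn1lw2* of the Lws2-ablation library was 49.9 CPM with all 4 genes and without *arr3a*, 38.2 with 2 genes, 40.6 with no UMI minimum and 35.02 without 5 cells. In the no ablation library it was 6.64 CPM with all 4 genes and without *arr3a*, and 7.58 when thinned. The cone-gated share of the Lws2-ablation library was 1.45% with all 4 genes, 1.52% with 20 UMIs, 2.79% with no UMI minimum and 1.40% without *arr3a*. For the library labelled Sws2-ablation it was 0.722% with all 4 genes and 0.684% without *arr3a*, and for no ablation 0.865%, 0.889% and, with cells of both gates, 1.63%. Red opsin cells of the library labelled Sws2-ablation were 74.4% when the main opsin had to exceed a share of 0.8. Of 245 other values 4 of those with a 2-fold call turned round. These were *opn1sw2* of Lws2-ablation to no ablation, 0.12 with cells of both gates and 1.27 when thinned, *rho* of the labelled Sws2-ablation to no ablation, 0.68 with cells of both gates, and *opn1sw1* of that comparison, 0.31 without 5 cells. Below the 2-fold limit, *rho* of Lws2-ablation to no ablation, 0.53, was -1.23 with all 4 genes, -1.89 without *arr3a*, -0.16 with *arr3b* added, -0.32 when thinned and 2.09 with 20 UMIs. The causes were not tested. The settings with *arr3b*, without 5 cells and without 1 cell were chosen after seeing the data. No paired analysis was possible because each condition has 1 library, and for the same reason no library could be left out. Levels of *opn1sw2*, *opn1sw1* and *rho* in cone-gated cells rest on 8 to 177 UMIs.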
